A study of Caenorhabditis elegans with 3 samples.

Results

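The vitellogenin genes and the yolk receptor gene were described in whole Caenorhabditis elegans larvae. The 7 members are vit-1, vit-2, vit-3, vit-4, vit-5, vit-6 and rme-2, taken by gene name from the 46135 genes listed, of which 20495 were above 0 in at least 1 library. All 7 were above 0 in every library. The animals were of the wild-type strain N2, synchronized as L1 larvae, fed RNAi bacteria on plates for 36 hours and harvested as L4 larvae. The bacteria carried a clone against gfp (a sequence that worms lack, serving as the control), against ham-3 or against swsn-2.2, with 1 library per group. HAM-3 and SWSN-2.2 are related proteins of the SWI/SNF complex, which remodels chromatin, and no group carried another allele or agent. The temperature is uncertain, since the series design gives 25 °C and the growth protocol 35 °C. The number of animals behind a library is not given in the labels.

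Vitellogenins are large lipid-carrying yolk proteins. In the worm they are made in the intestine of the hermaphrodite, secreted into the body cavity and taken up by growing oocytes through RME-2, a receptor of the low-density lipoprotein receptor family that is expressed in the germ line. Vitellogenin transcription is known to start around the change from the last larval stage to the adult, and depends on sex, on developmental timing and on insulin signalling.

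Levels are given as FPKM, the fragments mapped to a gene scaled to transcript length and library size, as the authors computed them. The inferred depth was 19630000 fragments for gfp(RNAi) and 30780000 for each of the other libraries. These are library sizes implied by the authors' FPKM and estimated in bins, so equal values mean the same bin and not an exactly equal depth. With 1 library per group there was no test across animals, and a difference between libraries could not be set against a spread between replicates. Intervals of 95% were computed from the inferred fragments and cover counting error only, since PCR copies are not independent molecules.

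The targeted genes were looked at first. The ham-3 gene was at 19.3 FPKM in gfp(RNAi), 23.1 FPKM in the ham-3(RNAi)-labelled library and 31.5 FPKM in swsn-2.2(RNAi), so it was not lower in the library labelled for it. The swsn-2.2 gene was at 19.3 FPKM in gfp(RNAi) and 37.8 FPKM in the ham-3(RNAi)-labelled library, and was listed at 0 in swsn-2.2(RNAi). A listed 0 can be a failed estimate: 267 genes in gfp(RNAi), 160 in the ham-3(RNAi)-labelled library and 178 in swsn-2.2(RNAi) were listed at 0 while reaching at least 10 FPKM in another library. None of the 7 members was among them.

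All 6 vitellogenin mRNAs were lowest in gfp(RNAi), intermediate in the ham-3(RNAi)-labelled library and highest in swsn-2.2(RNAi). The share of all genes with that order was not computed. Of all genes compared, 56.1% were higher in the ham-3(RNAi)-labelled library than in gfp(RNAi). In swsn-2.2(RNAi), 59.7% were higher than in the ham-3(RNAi)-labelled library. Their summed level was 1004 FPKM in gfp(RNAi), 1329 FPKM in the ham-3(RNAi)-labelled library and 1704 FPKM in swsn-2.2(RNAi). The sum was thus 1.32-fold higher in the ham-3(RNAi)-labelled library than in gfp(RNAi), with a counting interval of 1.31 to 1.33, and 1.70-fold higher in swsn-2.2(RNAi), with an interval of 1.68 to 1.71. The mRNA of the receptor gene rme-2 varied less, from 38.5 to 46.9 FPKM, and was highest in the ham-3(RNAi)-labelled library. Both comparisons share the gfp library. Why the ham-3 gene was not lower in the ham-3(RNAi)-labelled library was not tested, and the direction there carries that doubt.

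**Figure D1:**
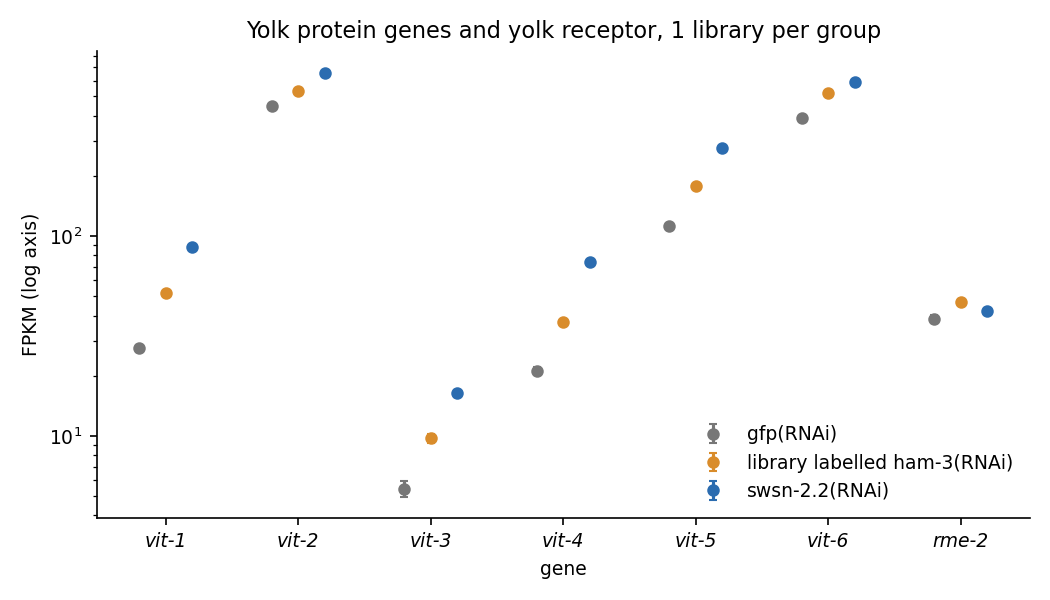
FPKM (log axis) of the 6 vitellogenin genes and rme-2 in each of the 3 libraries, 1 point per gene and library with no replicates. Each vitellogenin is lowest in gfp(RNAi) and highest in swsn-2.2(RNAi), while rme-2 stays between 38.5 and 46.9 FPKM.

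The most abundant copies were vit-2 and vit-6. The vit-2 gene (C42D8.2) was at 449 FPKM in gfp(RNAi), 535 FPKM in the ham-3(RNAi)-labelled library and 658 FPKM in swsn-2.2(RNAi). The vit-6 gene, K07H8.6, is the only vitellogenin outside chromosome X and encodes a precursor that is cleaved into a pair of smaller yolk proteins. Its level was 389 FPKM in gfp(RNAi), 517 FPKM in the ham-3(RNAi)-labelled library and 592 FPKM in swsn-2.2(RNAi). These genes ranked 396 and 453 among all genes by FPKM in gfp(RNAi), and 268 and 298 in swsn-2.2(RNAi). The vit-2 level was 1.19-fold of gfp(RNAi) in the ham-3(RNAi)-labelled library and 1.47-fold in swsn-2.2(RNAi). For vit-6 these folds were 1.33 and 1.52.

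The other 4 copies were less abundant and differed more between libraries. The vit-5 gene (C04F6.1) was at 112 FPKM in gfp(RNAi), 179 FPKM in the ham-3(RNAi)-labelled library and 276 FPKM in swsn-2.2(RNAi). The vit-1 gene (K09F5.2) was at 27.5, 51.7 and 87.9 FPKM in that order of libraries. The vit-4 gene (F59D8.2) was at 21.2, 37.2 and 74.1 FPKM, and its neighbour vit-3 (F59D8.1) at 5.43, 9.74 and 16.3 FPKM. Against gfp(RNAi), these 4 genes were 1.59-fold (vit-5) to 1.88-fold (vit-1) higher in the ham-3(RNAi)-labelled library, a range that lay wholly above the folds of vit-2 and vit-6. In swsn-2.2(RNAi) they were 2.46-fold (vit-5) to 3.50-fold (vit-4) higher, again above the folds of vit-2 and vit-6.

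In gfp(RNAi), the order of the levels from high to low was vit-2, vit-6, vit-5, rme-2, vit-1, vit-4 and vit-3. In the ham-3(RNAi)-labelled library and in swsn-2.2(RNAi), vit-1 stood above rme-2, and in swsn-2.2(RNAi) vit-4 did so as well. FPKM is scaled to transcript length, so levels can be compared between genes where the length used is known. For vit-3 and vit-4 it is not, and their places in this order are uncertain. The counting intervals of neighbours in this order did not overlap in gfp(RNAi), for example 36.8 to 40.2 FPKM for rme-2 and 26.4 to 28.5 FPKM for vit-1. The spread between animals behind these orders is unknown.

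On the scale of the log2 ratio of FPKM + 1, which understates differences of weakly expressed genes, all 6 vitellogenins had a ratio above 0 in the ham-3(RNAi)-labelled library, as had 56.1% of the 14683 genes with a mean of at least 1 FPKM over the pair. Of the 6, 4 were at least 1.5-fold higher (vit-1, vit-3, vit-4 and vit-5), against 3.69% of all genes. No vitellogenin reached 2-fold there, a fold that 2.4% of all genes reached. The log2 ratios were 0.89 for vit-1, 0.79 for vit-4, 0.74 for vit-3, 0.67 for vit-5, 0.41 for vit-6 and 0.25 for vit-2. Their median was 0.70, and that of all genes was 0.03. The counting interval of the plain log2 ratio was widest for vit-3, the least abundant copy, at 0.69 to 0.99. That interval rests on the whole annotated transcript length. The level of rme-2 gave a log2 ratio of 0.28, and the counting interval of its plain log2 ratio was 0.21 to 0.37.

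In swsn-2.2(RNAi) against gfp(RNAi), all 6 ratios were above 0, as were 65.5% of the 14713 genes compared. Of the vitellogenins, 5 were at least 1.5-fold higher, against 4.14% of all genes, and 4 were at least 2-fold higher, against 2.26% of all genes. The log2 ratios were 1.76 for vit-4, 1.64 for vit-1, 1.43 for vit-3, 1.29 for vit-5, 0.60 for vit-6 and 0.55 for vit-2. Their median was 1.36, and that of all genes was 0.08. The receptor gene rme-2 had a log2 ratio of 0.14, and the counting interval of its plain log2 ratio was 0.06 to 0.22.

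The background shares include genes listed at 0 in a library. Without those genes, 1.64% of genes were at least 1.5-fold and 0.303% at least 2-fold higher in the ham-3(RNAi)-labelled library. In swsn-2.2(RNAi) these shares were 2.33% and 0.392%, and the values of the members were not affected.

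Set directly against the ham-3(RNAi)-labelled library, swsn-2.2(RNAi) again held more of every vitellogenin mRNA, with ratios above 0 for 6 of 6, as for 59.7% of the 14738 genes compared. Of these 6, 4 were at least 1.5-fold higher, against 4.66% of all genes, or 3.4% without genes listed at 0. None reached 2-fold on this scale, against 1.93% of all genes, or 0.58% without genes listed at 0. The log2 ratios were 0.98 for vit-4, 0.76 for vit-1, 0.69 for vit-3, 0.62 for vit-5, 0.30 for vit-2 and 0.19 for vit-6. The rme-2 ratio had the other sign, -0.14, and the counting interval of its plain log2 ratio was -0.21 to -0.08. This comparison uses the same libraries as the others and adds no independent one.

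**Figure D2:**
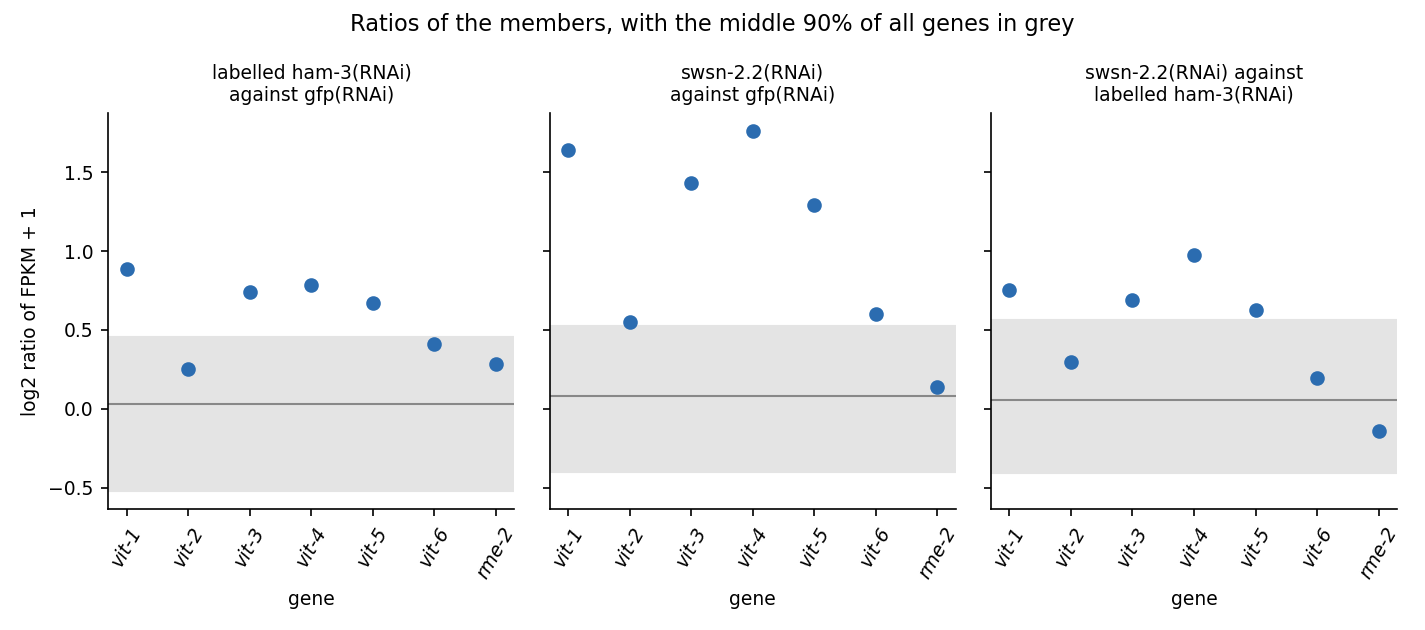
Log2 ratio of FPKM + 1 of each member in the 3 comparisons of libraries, with the median of all genes as a line and their 5th to 95th percentiles as a grey band. In swsn-2.2(RNAi) against gfp(RNAi) all 6 vitellogenins lie above the band, from 0.55 for vit-2 to 1.76 for vit-4, whereas in both other comparisons vit-2 and vit-6 lie inside it, and rme-2 lies inside it in all 3.

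Several vitellogenin genes are close copies, and fragments that match more than 1 copy could have been assigned to any of them. How the authors assigned such fragments is not given in the sources used here, so single values of vit-1 to vit-5 are uncertain where copies share sequence. Sums over related copies do not depend on that split where the copies were scaled to like lengths, which is not known for vit-3 and vit-4. The summed level of vit-3, vit-4 and vit-5 was 139 FPKM in gfp(RNAi), 225 FPKM in the ham-3(RNAi)-labelled library and 366 FPKM in swsn-2.2(RNAi), that is 1.63-fold and 2.64-fold of gfp(RNAi). The summed level of vit-1 and vit-2 was 476, 586 and 746 FPKM, which is 1.23-fold and 1.57-fold. The fold of a sum must lie between the folds of its parts, so these sums add no separate support. In gfp(RNAi), vit-5 held 112 of the 139 FPKM and vit-2 held 449 of the 476 FPKM. Fragments shared between the vit-3 to vit-5 group and vit-1 or vit-2 are not covered by these sums.

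The makeup of the vitellogenin mRNA pool differed with its size. The share of vit-2 was 44.7% of the summed FPKM in gfp(RNAi), 40.2% in the ham-3(RNAi)-labelled library and 38.6% in swsn-2.2(RNAi). The share of vit-6 was 38.7%, 38.9% and 34.7% in the same order. The share of vit-5 was 11.2%, 13.4% and 16.2%, and that of vit-1 was 2.74%, 3.89% and 5.16%. Of the 324.6 FPKM by which the sum in the ham-3(RNAi)-labelled library exceeded gfp(RNAi), vit-6 held 39.4%, vit-2 26.4% and vit-5 20.5%. Of the 699.6 FPKM by which swsn-2.2(RNAi) exceeded gfp(RNAi), vit-2 held 29.9%, vit-6 29.0% and vit-5 23.4%. The most abundant genes thus held most of the difference in level although their folds were the smallest. All vitellogenin mRNA together was 0.0933% of the summed FPKM of all genes in gfp(RNAi), 0.125% in the ham-3(RNAi)-labelled library and 0.155% in swsn-2.2(RNAi).

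**Figure D3:**
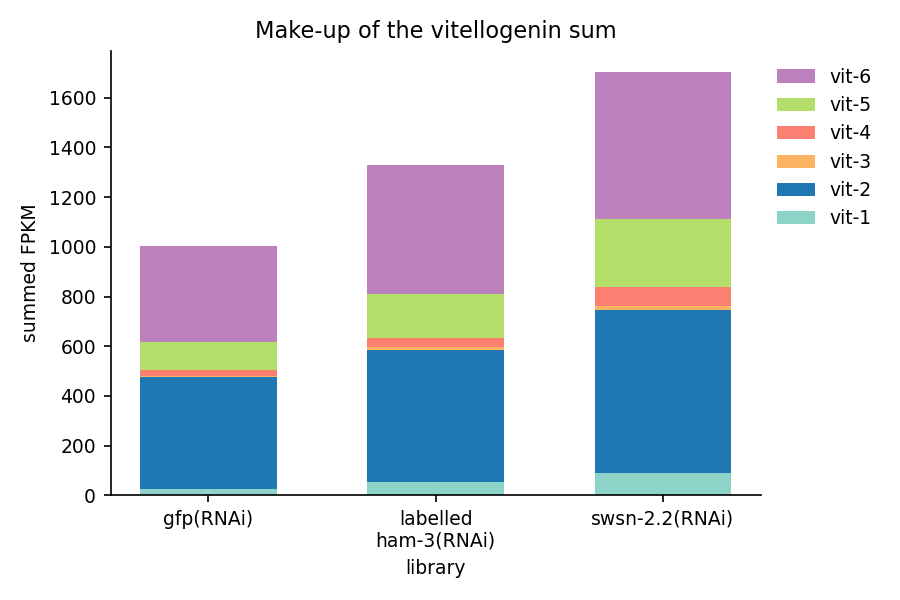
Stacked FPKM of the 6 vitellogenins in each library, with bars starting at 0. The sum is 1004 FPKM in gfp(RNAi), 1329 FPKM in the ham-3(RNAi)-labelled library and 1704 FPKM in swsn-2.2(RNAi), and vit-2 and vit-6 make up most of each bar.

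The ratio of vitellogenin to receptor mRNA was computed from the same values. Summed vitellogenin FPKM per FPKM of rme-2 was 26.1 in gfp(RNAi), 28.3 in the ham-3(RNAi)-labelled library and 40.2 in swsn-2.2(RNAi).

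The transcript tables split 3 of the members into annotated transcripts. The first transcript of vit-2 (C42D8.2a) held 95.6% of the gene's FPKM in gfp(RNAi), 96.5% in the ham-3(RNAi)-labelled library and 95.4% in swsn-2.2(RNAi). For vit-6 the first transcript held 99.7%, 99.5% and 99.7%. For rme-2 the transcript T11F8.3.2 held 84.5%, 84.7% and 83.6%. The leading transcript was the same in every library, and its share moved by about a percentage point or less.

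In the genome assembly WBcel235 (Ensembl annotation), vit-1 lies on the plus strand of X from 7727889 to 7733168, vit-2 on the plus strand of X from 5101042 to 5106169 and vit-5 on the plus strand of X from 3403471 to 3408603. The genes vit-4 (X, 3558769 to 3563965) and vit-3 (X, 3567355 to 3572549) are neighbours on the minus strand with 3389 bp between them. The gene vit-6 lies on the plus strand of chromosome IV from 8261157 to 8266459, and rme-2 on the plus strand of IV from 5470026 to 5473174. The deposited tables list spans within 140 bp of these ends for vit-1, vit-2, vit-5, vit-6 and rme-2. For vit-3 and vit-4 they list a span of 873 bp at the 5′ end of each gene, although the annotated transcripts are 4924 and 4936 bp long. Which length the authors' scaling used for these copies is not given in the sources used here, so the levels of vit-3 and vit-4 relative to other genes are uncertain. Their ratios between libraries do not depend on that length.

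The authors' deposited table of genes called higher lists 5 of the 6 vitellogenins for each RNAi library, against 1.39% of all tested genes in the ham-3(RNAi)-labelled library and 3.11% in swsn-2.2(RNAi). For the ham-3(RNAi)-labelled library, the authors' deposited table gives a q-value of 7.75e-10 for vit-1, 1.42e-07 for vit-4, 7.76e-06 for vit-3, 5.79e-05 for vit-5 and 0.157 for vit-6. It does not list vit-2, for which the authors' deposited table has a p-value of 0.0996. For swsn-2.2(RNAi), the authors' deposited table gives a q-value of 0.0348 for vit-2 and 0.01995 for vit-6, and lists it as 0 for vit-1, vit-3 and vit-5. It does not list vit-4, for which the authors' deposited table gives a log2 fold of 1.81 and no test. The receptor gene rme-2 is in neither list, with a p-value of 0.0170 in the first comparison and 0.227 in the second, per the authors' deposited table. With 1 library per condition, these p-values do not measure the spread between animals.

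Known regulators of the vitellogenin genes had median ratios closer to that of all genes than the vitellogenins had, a difference that was not tested. The list held 17 regulators, of which 16 were above 0 in every library with a mean of at least 1 FPKM. Of these 16, 13 were above and 3 below gfp(RNAi) in the ham-3(RNAi)-labelled library, with a median log2 ratio of 0.09. In swsn-2.2(RNAi) 11 were above and 5 below, with a median of 0.10. Over all genes compared, 56.1% and 65.5% were above gfp(RNAi) in these libraries, with medians of 0.03 and 0.08. The medians of the regulators thus lay within 0.1 of those of all genes. None of the 16 reached 1.5-fold in either comparison. Of all genes above 0 in both libraries compared, 1.64% (ham-3(RNAi)-labelled library) and 2.33% (swsn-2.2(RNAi)) were at least 1.5-fold higher. For so few regulators, none is near these shares. The homeobox gene ceh-60, whose product is known to activate vitellogenin genes in the intestine, was at 10.3 FPKM in gfp(RNAi), 13.7 FPKM in the ham-3(RNAi)-labelled library and 15.1 FPKM in swsn-2.2(RNAi). The sex-determination gene tra-1 was at 10.6, 12.0 and 14.1 FPKM. These were the 2 regulators in the authors' deposited list of higher genes for swsn-2.2(RNAi). The gene elt-2, which encodes the main GATA factor of the intestine, was at 12.9, 14.3 and 16.5 FPKM. The most abundant regulator, pqm-1, was at 113, 114 and 105 FPKM. The gene unc-62, which encodes a homeobox partner of CEH-60, was listed at 0 in gfp(RNAi) and at 19.9 and 24.3 FPKM in the RNAi libraries, and the authors did not test it.

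Genes of yolk export and uptake, among them membrane traffic genes that act on the receptor, made up a further list of 17. Of the 15 above 0 in every library with a mean of at least 1 FPKM, 11 were above gfp(RNAi) in the ham-3(RNAi)-labelled library, with a median log2 ratio of 0.06. In swsn-2.2(RNAi) 5 of the 15 were above, with a median of -0.05. Over all genes compared, 56.1% and 65.5% were above gfp(RNAi) in these libraries, with medians of 0.03 and 0.08. None of the 15 reached 1.5-fold against gfp(RNAi). Of all genes above 0 in both libraries compared, 1.64% (ham-3(RNAi)-labelled library) and 2.33% (swsn-2.2(RNAi)) were at least 1.5-fold higher. None of the 15 is in the authors' deposited lists. The most abundant, the recycling GTPase gene rab-11.1, was at 462 FPKM in gfp(RNAi), 466 FPKM in the ham-3(RNAi)-labelled library and 448 FPKM in swsn-2.2(RNAi). The gene rab-35, whose product is known to act in recycling of RME-2, was at 23.8, 29.7 and 28.0 FPKM. The genes rme-1 and rme-8 were listed at 0 in all 3 libraries, and whether these are failed estimates was not tested.

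In whole larvae, more or fewer cells of a type and more or less RNA per cell cannot be told apart. The labelled stage and the tissues that bear on yolk were therefore checked with markers. Of 12 intestine markers, 11 were above 0 in every library, and their summed level was 3578 FPKM in gfp(RNAi), 3498 FPKM in the ham-3(RNAi)-labelled library and 3850 FPKM in swsn-2.2(RNAi). In swsn-2.2(RNAi) 10 of these 11 were above gfp(RNAi), with a median log2 ratio of 0.11, and in the ham-3(RNAi)-labelled library 4 of 11 were, with a median of -0.06. Over all genes compared, 65.5% and 56.1% were above gfp(RNAi) in these libraries, with medians of 0.08 and 0.03. The medians of the intestine list lay within 0.1 of those of all genes. The intestinal filament gene ifc-2 was at 111, 121 and 136 FPKM, and the GATA factor gene elt-7 at 31.8, 27.6 and 23.7 FPKM. The gut esterase gene ges-1 was listed at 0 in both RNAi libraries. Summed vitellogenin per 100 FPKM of the intestine list was 28.1 in gfp(RNAi), 1.35-fold of that in the ham-3(RNAi)-labelled library and 44.3, or 1.58-fold, in swsn-2.2(RNAi), so the order of the libraries was the same after that scaling. The gene asp-1 made up most of the intestine sum, at 1991, 1956 and 2131 FPKM in the same order, so this scaling rests largely on asp-1.

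Oocyte markers were detected. Of 18, 15 were above 0 in every library, with a summed level of 995 FPKM in gfp(RNAi), 1019 FPKM in the ham-3(RNAi)-labelled library and 1206 FPKM in swsn-2.2(RNAi). In swsn-2.2(RNAi) 14 of the 15 were above gfp(RNAi), with a median log2 ratio of 0.22, and in the ham-3(RNAi)-labelled library 13 were, with a median of 0.16, beside 65.5% and 56.1% of all genes with medians of 0.08 and 0.03. The gene perm-2, which encodes a protein of the eggshell's vitelline layer, was at 149 FPKM in gfp(RNAi), 119 FPKM in the ham-3(RNAi)-labelled library and 221 FPKM in swsn-2.2(RNAi). Of these 15, perm-2 and perm-4 were the 2 below gfp(RNAi) in the ham-3(RNAi)-labelled library. The order of rme-2, lowest in gfp(RNAi) and highest in the ham-3(RNAi)-labelled library, was also that of 6 oocyte markers (oma-1, puf-3, puf-5, mex-5, egg-3 and cbd-1). As many (oma-2, puf-11, spn-4, pos-1, egg-2 and chs-1) had the order of the vitellogenins, lowest in gfp(RNAi) and highest in swsn-2.2(RNAi). The level of rme-2 per 100 FPKM of the oocyte list was 3.87, 4.60 and 3.52. That list's sum includes perm-2 and perm-4 (152, 117 and 197 FPKM), its most abundant genes, which weigh on these values. The markers mex-6, lin-41 and egg-1 were listed at 0 in at least 1 library.

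Of 5 markers of the adult cuticle, 4 were above gfp(RNAi) in swsn-2.2(RNAi), beside 65.5% of all genes. The median log2 ratio of the 5 markers there was 0.25, against 0.08 over all genes. In the ham-3(RNAi)-labelled library 2 of them were above, beside 56.1% of all genes. The summed level of the 5 markers was 2598 FPKM in gfp(RNAi), 2520.0 FPKM in the ham-3(RNAi)-labelled library and 3186 FPKM in swsn-2.2(RNAi). The adult collagen gene col-19 was at 884, 876 and 1182 FPKM. Sperm markers had median log2 ratios of 0.08 in the ham-3(RNAi)-labelled library and -0.06 in swsn-2.2(RNAi), over 7 genes. Body wall muscle markers had medians of 0.03 and -0.21 over 6 genes. Of 8 genes first transcribed in the embryo, none exceeded 0.845 FPKM in any library. The summed levels of the intestine, oocyte and adult cuticle markers were, like that of the vitellogenins, highest in swsn-2.2(RNAi). Of the genes in these sums, elt-7, mbk-2 and bli-1 were lower there than in gfp(RNAi). No marker above 0 in every library with a mean of at least 1 FPKM reached 1.5-fold against gfp(RNAi). Of all genes above 0 in both libraries compared, 1.64% (ham-3(RNAi)-labelled library) and 2.33% (swsn-2.2(RNAi)) were at least 1.5-fold higher. For so few markers, none is near these shares. In swsn-2.2(RNAi) against the ham-3(RNAi)-labelled library, perm-2 and perm-4 passed 1.5-fold, with log2 ratios of 0.89 and 0.74. The part of stage or tissue makeup in the vitellogenin values was not tested.

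**Figure D4:**
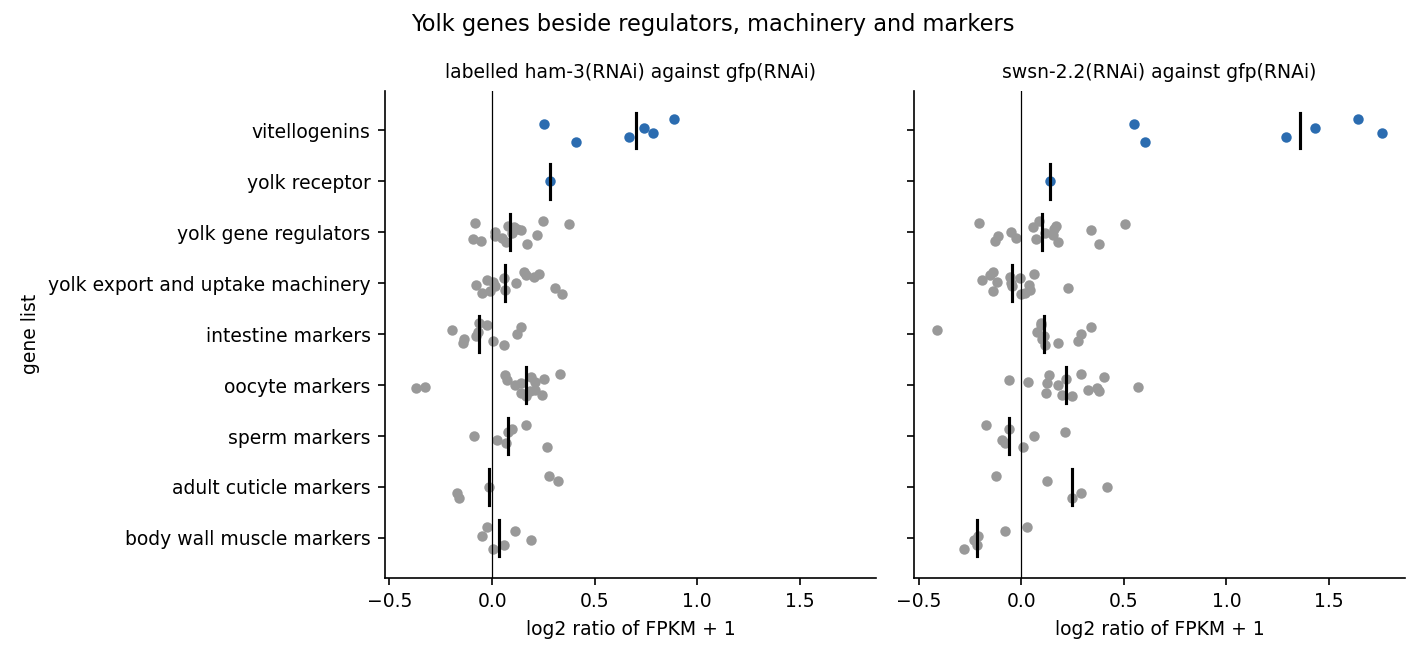
Log2 ratio of FPKM + 1 against gfp(RNAi) for the members and for each gene list (points are genes above 0 in every library with a mean of at least 1 FPKM, bars are list medians). The vitellogenin medians of 0.70 and 1.36 lie to the right of those of the regulator, machinery and marker lists, whose highest medians are 0.16 for oocyte markers in the ham-3(RNAi)-labelled library and 0.25 for adult cuticle markers in swsn-2.2(RNAi).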

How the data were processed

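Poly(A) RNA of 3 libraries was sequenced as paired reads of 73 bp on the Illumina HiSeq platform, per the labels' protocols. The FPKM values of genes and transcripts were deposited by the authors. The authors also deposited log2 folds and p-values, and a q-value only in their lists of higher and lower genes, all of which have a p-value under 0.01. The submitters' processing notes name Cufflinks and Cuffdiff, without their roles. Program versions, aligner and build were not given in the sources used here. Both gene tables carry the same gfp values, so the libraries share a scale.

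From these values, log2 ratios of FPKM + 1 were computed (Python 3.11.15, pandas 2.3.3, NumPy 2.4.6), over genes with a mean of at least 1 FPKM in the pair. Fragments were inferred from the steps of FPKM values up to 0.3 in genes with 1 transcript of at least 500 bp: 95.1%, 94.3% and 93.0% of estimates lay within 0.1 of a whole number in gfp(RNAi), the ham-3(RNAi)-labelled library and swsn-2.2(RNAi). For the 2 copies with a short listed span the whole annotated transcript was used. Intervals are exact (Clopper-Pearson for ratios, Poisson for levels; SciPy 1.17.1). The depth inference and the count of genes past 2-fold were run on simulated Poisson fragments. The intervals, sums and list medians were not, and fragments shared between copies were not simulated.

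The members and gene lists were chosen with earlier results of these data known. Named genes were all members, the targeted genes, up to 4 genes per list with the largest ratio and a mean of at least 5 FPKM, the most abundant of each list and those listed at 0, of which a selection is printed. No sequence is shown, since none was used here. No sample was left out.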

Additional observations from a re-analysis of the deposited data

How the results depend on the processing

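No paired analysis was possible because each group has 1 library, and for the same reason no library could be left out in turn. No member's ratio changed sign under 5 settings in the 3 comparisons. A change of pseudocount cannot change a sign, and summing the transcripts adds up the same levels again. Only centring on the median gene and upper quartile scaling could have changed a sign. The largest shift was 0.40 log2, at a pseudocount of 5 FPKM.

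The summed vitellogenin log2 ratio of the ham-3(RNAi)-labelled library against gfp(RNAi), 0.40, became 0.37 when centred on the median gene, 0.42 with upper quartile scaling and 0.52 without vit-2. That of swsn-2.2(RNAi) against gfp(RNAi), 0.76, became 0.68, 0.72 and 0.91 under these settings, and 0.85 without vit-6. That of swsn-2.2(RNAi) against the ham-3(RNAi)-labelled library, 0.36, became 0.31, 0.30 and 0.40, and 0.45 without vit-6. After the data were seen, the sum was also taken without vit-3 and vit-4, giving 0.39, 0.72 and 0.33, and per summed FPKM of the intestine markers, giving 0.44, 0.66 and 0.22.

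The 4 vitellogenins at least 1.5-fold higher in the ham-3(RNAi)-labelled library became 3 at a pseudocount of 5, and the 4 in the direct comparison became 3 at that pseudocount and with either scaling. The 5 in swsn-2.2(RNAi) became 4 with either scaling.

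Background counts of genes past 2-fold shrank most when genes listed at 0 were left out. In the ham-3(RNAi)-labelled library, 352 higher genes became 43 (219 with a mean of at least 5 FPKM), and 258 lower genes became 73 (131 with that mean, 155 at a pseudocount of 5). In swsn-2.2(RNAi), 332 higher genes became 56 (201), and 215 lower genes became 48 (112, and 137 at a pseudocount of 5). In the direct comparison, 284 higher genes became 83 (166, and 175 at a pseudocount of 5), and 264 lower genes became 40 (152, and 174). Fewer genes are compared under these filters.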

Other observations

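The authors' deposited list of genes higher in both RNAi libraries, which share the gfp library, holds 68 genes, of which 10 carry the authors' mark for a link to DAF-16, the transcription factor of insulin signalling. It holds vit-1, vit-3, vit-5 and vit-6, and all 4 carry that mark. The authors' deposited list of genes lower in both holds 114 genes, of which 20 carry the mark, and no vitellogenin.

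The named genes whose pair of log2 ratios against gfp(RNAi) lay nearest to that of the summed vitellogenins, over 3 libraries that share a control, were otpl-3, amt-4, clec-90, prmt-6, nspb-9, grd-10, grd-13 and clec-86. The nearest, otpl-3, was at 4.88 FPKM in gfp(RNAi), 6.64 FPKM in the ham-3(RNAi)-labelled library and 8.61 FPKM in swsn-2.2(RNAi). The C-type lectin gene clec-86 was at 60.1, 71.3 and 103 FPKM.

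Genes next to the vitellogenins on the chromosome were looked up. The saposin-like gene spp-14, 1505 bp from vit-1, was at 1729.6 FPKM in gfp(RNAi), 1118 FPKM in the ham-3(RNAi)-labelled library and 1672 FPKM in swsn-2.2(RNAi), where vit-1 was at 27.5, 51.7 and 87.9 FPKM. The gene set-12, 165 bp from the other end of vit-1, was at 2.42, 1.13 and 1.85 FPKM. The gene unc-78, 70 bp from vit-5, was at 44.3, 48.4 and 43.8 FPKM. The gene rgs-7, 985 bp from vit-4, was at 20.7, 19.1 and 18.7 FPKM. None of these 4 neighbours had the order of libraries seen for each vitellogenin, nor had acn-1 and C42D8.1 beside vit-2. How many of all genes had that order was not computed. Beside vit-6, K07H8.7 had that order, at 3.88, 3.92 and 4.39 FPKM, while K07H8.8, 184 bp from vit-6, was at 0.288, 1.10 and 0.954 FPKM, near the minimum level of 1 FPKM used here.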
